A study of Mus musculus with 125 samples.

Results

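The 294 peaks described here were open in cell lines C and D and closed in cell lines A and B when the leukaemia cells grew alone, and the question was what natural killer (NK) cells did to them in either pair of lines. With NK cells, C and D largely kept them, while A and B stayed far below C and D at nearly all of them. At 31 of the 294 accessibility rose in A and B at either time, most of all at a peak near Ptprg that reached the level of C and D grown alone. By time, 9.52% of the 294 rose at the early and 5.44% at the late one, where 6.33% and 4.58% of all 58840 tested peaks rose. In C and D 15 of the peaks lost accessibility with NK cells at either time and 5 gained it. Falls made up 0.680% and 4.42% of the 294, against 0.155% and 1.10% of all, and rises 1.02% at each time, below the 2.00% and 1.88% of all. The assay was ATAC-seq: the transposase Tn5 cuts into open DNA and leaves sequencing adapters there. Of 256400 consensus peaks, those on chromosomes 1 to 19 were taken that overlapped a broad peak in at least 19 of the 23 B-ALL alone libraries of C and D and in at most 1 of the 18 of A and B. A broad peak is a region with an excess of reads that MACS2 called in 1 library. Measured calls in B-ALL alone thus chose the peaks, and their levels there are given as a description. Those libraries are also the reference in comparisons with B-ALL alone, so the choice favours falls in C/D and rises in A/B.

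All 4 lines are mouse leukaemias of B-cell precursors (B-ALL), made by retroviral transfer of the BCR/ABLp185 fusion kinase into bone marrow of wild-type mice and then marked with a lentiviral barcode that carries GFP. According to the study, C and D were derived from a common parental line and A and B from another, so C/D against A/B compares a single parental line with another. Each line in each experiment had 3 groups, namely leukaemia cells alone, sampled at the early time point (TP1), and cells with NK cells at TP1 and at the late time point (TP2). By the labels TP1 was day 4 and TP2 day 10, and days 6 and 16 in experiment 9.7. The study's text places TP2 later than these labels do, and the days used here are those of the labels. Every culture held interleukin-2, and GFP+ cells were sorted before tagging. The labels do not give the genotype of the NK cells, which the study calls wild-type. Cells alone were sampled at TP1 only, so at TP2 the length of culture and the NK cells cannot be told apart.

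There were 125 libraries in 42 groups, 8 combinations of line and experiment in C/D and 6 in A/B, with 3083547 to 13580746 counts in peaks per library. The combinations of C/D include experiment 9.5.1 of line C and experiment 9.6.1 of line D, whose B-ALL alone group held 2 libraries. Fits in C/D that leave out or hold only experiment 9.5 count 9.5.1 with it. Those for experiment 9.6 count 9.6.1 with it. In 2 groups of line C, the counts of replicates 2 and 3 agreed within sampling noise, so each pair was taken as 1 sample, which left 69 samples in C/D (22 alone, 24 at TP1, 23 at TP2) and 54 in A/B (18 in each arm). The study describes 3 biological replicates per condition, grown in separate wells. The labels number replicates without tying them to those wells, so a p-value here sets a change only against the variation left among these samples. Some of that variation may be technical. One library, D with NK cells at TP2 in experiment 9.6, replicate 2, had 101211 broad peaks, and the others had 26047 to 62541. Of 10 B-lineage markers, all had a call near them in at least 90% of libraries of every arm, except that 9 of 10 did in A/B at TP2. Of 10 NK markers, Ncr1 and Klrk1 had no call in any library, while Eomes had calls in at least 90% of libraries of every arm, cells alone included. Klrb1c did so in every arm but C/D at TP2. Gzmb had no call in cells alone and had calls in each arm with NK cells, and Gzma had calls in A/B at TP2 only. The summed level of the 10 had medians of 61.9, 61.4 and 58.3 CPM in C/D (alone, TP1, TP2). In A/B the medians were 72.7, 75.5 and 70.7 CPM. CPM are counts scaled by 1 common factor over the sample's effective (TMM) library size, so they compare a peak between samples.

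As background, nucleosomes cover most of the genome, and a stretch becomes accessible where promoters, enhancers or insulators are bound by transcription factors and remodellers. The set of open enhancers is a record of cell identity and of the signals a cell has received, and it can differ between leukaemias of the same kind. NK cells kill their targets and secrete interferon-γ, which acts through the kinases JAK1 and JAK2. STAT5, the main STAT factor downstream of BCR/ABL, binds a palindrome known as the interferon-γ-activated site (GAS).

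The sequences shown first are the central 300 bases of 4 of the peaks with the largest changes among those named below, since all 4 gained accessibility in A/B. They were read from GRCm38 (RefSeq) on the + strand, 5′ to 3′. Capitals mark matches to GAS (TTCNNNGAA), the ISRE of interferon response factors (GAAANNGAA), AP-1 (TGANTCA), ETS (CGGAAG), PU.1 (GAGGAAG) and RUNX (TGTGGT), each searched on both strands. A match is a description of the letters, not a bound site. None of these 6 motifs was found in the window nearest Gm8079.
Peak nearest Ptprg, centre (chr14:12243475-12243774, + strand): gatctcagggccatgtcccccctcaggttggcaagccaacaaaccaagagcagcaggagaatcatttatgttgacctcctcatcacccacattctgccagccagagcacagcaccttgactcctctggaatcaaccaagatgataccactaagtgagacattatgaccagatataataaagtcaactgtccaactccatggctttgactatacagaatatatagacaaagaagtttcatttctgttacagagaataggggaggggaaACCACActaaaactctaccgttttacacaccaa
Peak nearest Gm8079, centre (chr8:79561935-79562234, + strand): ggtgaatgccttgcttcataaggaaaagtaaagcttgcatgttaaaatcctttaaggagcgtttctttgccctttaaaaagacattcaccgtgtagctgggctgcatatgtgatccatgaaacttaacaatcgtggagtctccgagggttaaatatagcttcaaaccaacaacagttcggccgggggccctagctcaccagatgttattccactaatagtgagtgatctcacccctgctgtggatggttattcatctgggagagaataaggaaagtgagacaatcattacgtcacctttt
Peak nearest Gm47007, centre (chr13:101866849-101867148, + strand): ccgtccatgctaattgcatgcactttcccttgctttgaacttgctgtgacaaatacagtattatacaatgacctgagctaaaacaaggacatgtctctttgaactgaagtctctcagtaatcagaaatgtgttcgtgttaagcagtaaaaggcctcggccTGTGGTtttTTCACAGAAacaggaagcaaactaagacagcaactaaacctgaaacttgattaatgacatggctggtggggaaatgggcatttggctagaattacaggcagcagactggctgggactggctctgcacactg
Peak nearest Rasgrf1, centre (chr9:89874619-89874918, + strand): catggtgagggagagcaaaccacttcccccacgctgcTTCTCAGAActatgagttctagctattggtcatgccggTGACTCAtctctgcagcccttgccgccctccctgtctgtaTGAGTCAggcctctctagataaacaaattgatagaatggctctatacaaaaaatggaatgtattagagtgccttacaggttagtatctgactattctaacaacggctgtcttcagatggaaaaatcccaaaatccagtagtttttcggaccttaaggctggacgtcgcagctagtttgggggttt

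The GAS letters are shown in more detail, a choice made after their shares were seen. Among all 58840 peaks tested, 9.12% held TTCNNNGAA in the central 300 bases. Of the 294 peaks open only in C/D 41 did (13.9%), of the 101 peaks open only in A/B 15 (14.9%), and of the 31 that rose in A/B 9 (29.0%), for which no test was run. Their 12 matches are shown with 12 bases on either side, GAS letters in capitals, + strand of GRCm38. 3 of them lie close together in the peak nearest Zfand6 and 2 in that nearest Bend7.
Gm47007 (chr13:101867006-101867038): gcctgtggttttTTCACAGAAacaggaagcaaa
Rasgrf1 (chr9:89874644-89874676): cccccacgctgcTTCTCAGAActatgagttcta
Gm24073 (chr14:114978415-114978447): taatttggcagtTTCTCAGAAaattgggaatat
Tmem178b (chr6:40238668-40238700): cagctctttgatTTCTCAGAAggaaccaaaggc
Zfand6 (chr7:84706263-84706295): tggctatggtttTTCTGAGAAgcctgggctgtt
Zfand6 (chr7:84706282-84706314): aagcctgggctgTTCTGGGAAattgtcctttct
Zfand6 (chr7:84706299-84706331): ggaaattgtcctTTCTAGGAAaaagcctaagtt
Tbc1d4 (chr14:101504137-101504169): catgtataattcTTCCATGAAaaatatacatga
Tmem163 (chr1:127638160-127638192): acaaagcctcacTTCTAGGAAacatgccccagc
Bend7 (chr2:4781780-4781812): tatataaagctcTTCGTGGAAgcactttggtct
Bend7 (chr2:4781917-4781949): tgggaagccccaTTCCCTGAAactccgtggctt
Spry2 (chr14:105922830-105922862): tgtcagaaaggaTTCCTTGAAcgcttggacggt

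Some other motifs differed from their share in all tested peaks too. In the 294 some did so by as much as GAS or more. In the 31 a few did so as a ratio, and none did so in percentage points. PU.1 was present in 9 of the 31 that rose in A/B (29.0%), in 17.0% of the 294 and in 15.5% of all tested. The ISRE letters were present in 4 of the 31 (12.9%), 11.9% of the 294 and 10.2% of all, and the NF-kB letters (GGGANTTCC) in 0 of the 31, 0.340% of the 294 and 1.28% of all. Among the 294, FOXO (TGTTTAC) matched in 7.14% against 3.65% of all, EBF (CCCNNGGGA) in 12.2% against 8.41%, NFY (CCAAT) in 34.7% against 29.4%, the E-box CAGGTG in 17.3% against 23.3%, and the CTCF core (AGNGGGC) in 14.6% against 21.6%. Among the 31, the E-box CAGGTG matched in 2 (6.45%), NFY in 14 (45.2%), and MEF2 (TATTTATA) in 2 (6.45%, against 1.48% of all). RUNX (24.5% against 23.8%) and the E2A E-box (CAGCTG, 21.8% against 19.3%) lay close to their shares in all peaks. The median GC content of the window was 48.7% in the 294, 44.0% in the 31 that rose in A/B and 49.7% in all tested, and its part in these shares was not tested.

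In B-ALL alone the peaks had a median of 7.43 CPM in C/D and 2.05 CPM in A/B, over the mean of each peak. These levels follow from the choice. Their ranges were 3.88 to 48.1 CPM in C/D and 0.596 to 25.7 CPM in A/B, so a closed peak was rarely without reads. The difference between the pairs was 1.67-fold at the least, near the Fc receptor-like gene Fcrlb, and 15.7-fold at the most, near Gm47488, with a median of 3.48. At the edge of the rule, 72 peaks had exactly 19 calls in C/D (median 6.26 CPM), and 63 peaks outside had 18 (5.56 CPM). On the side of A/B, 97 peaks had 1 call (2.36 CPM in A/B) and 85 outside had 2 (3.03 CPM in A/B).

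The peak with the highest level, in an exon of Mroh2a (chr1:88238767-88242637), had 27.3, 47.7 and 70.1 CPM in C/D alone (lowest, median, highest) and 13.6, 23.4 and 44.4 CPM in A/B alone. Its groups overlapped, and with a call in 19 of 23 libraries it stood at the edge of the rule. In contrast, the intronic peak of Lrch1 (chr14:74866567-74869289) had 30.4, 38.1 and 46.3 CPM in C/D alone against 1.41, 3.46 and 4.97 CPM in A/B alone. Peaks at Tmc6, which encodes a membrane protein linked to skin virus susceptibility (chr11:117775644-117777354 and chr11:117762017-117766318), Gm10863, the axon guidance receptor gene Robo3, the Mediator subunit gene Med4, Fam198a, the corepressor gene Aes and the kinase gene Stk24 followed, with medians of 26.5 to 37.1 CPM in C/D alone and 3.30 to 14.2 CPM in A/B alone. None of these 10 peaks was called in a comparison with NK cells in C/D or A/B.

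**Figure D1:**
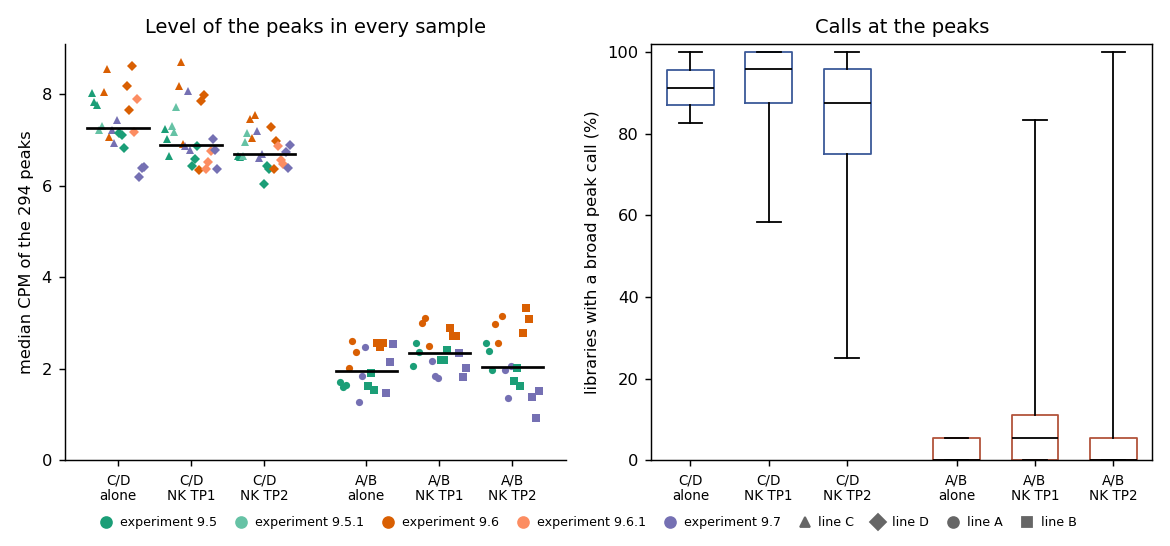
Left, median level of the 294 peaks in every sample (CPM, linear axis from 0), with 1 point per sample, shapes for lines, colours for experiments and a black line for the median of the arm. Right, share of libraries (%) with a broad peak call at each peak, as boxes over the 294 peaks with whiskers from the lowest to the highest. Samples of C/D lie between 6.03 and 8.71 CPM and those of A/B between 0.935 and 3.33 CPM.

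With NK cells the gap between the pairs narrowed little. All 294 peaks remained higher on average in C/D than in A/B in every arm. The median fold of C/D over A/B was 3.48 in B-ALL alone, 2.97 at TP1 and 2.89 at TP2. The lowest C/D sample lay above the highest A/B sample at 181 peaks in B-ALL alone, where 1.36% of all tested peaks did so, at 156 at TP1 (1.55% of all) and at 101 at TP2 (0.904% of all). The median peak had 7.43, 7.18 and 6.81 CPM in C/D and 2.05, 2.36 and 2.23 CPM in A/B (alone, TP1, TP2). The choice rests on the alone libraries, and a choice of this kind by itself favours lower values in C/D and higher values in A/B in libraries it did not use.

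Broad peak calls were counted as well. In C/D a peak was called on average in 20.9 of 23 libraries alone, in 22 of 24 at TP1 and in 19.7 of 24 at TP2. At TP2 16 of the 294 were called in fewer than 12 of the 24 libraries, among them those near AC168306.1 (6 libraries), Gm13484 (7) and 1700010H22Rik (8). In A/B the averages were 0.330, 1.84 and 1.19 of 18 libraries. Calls in the alone libraries chose the peaks, with at most 1 in A/B. That choice by itself favours fewer calls in C/D and more calls in A/B with NK cells. The A/B libraries also differed in their broad peaks in all, with medians of 40518.5, 47999.5 and 42465 per library (alone, TP1, TP2). How far either point raised the averages in A/B was not tested. Counts of peaks by number of calls were not made over all tested peaks, so nothing is read from them. In A/B 16 peaks had a call in at least 9 of 18 libraries at TP1 and 6 did at TP2. Those of Ptprg (15 libraries at TP1, 18 at TP2), Prdm2 (15 and 12), Gm27246 (12 and 11), Prr5l (11 and 9), Tmem178b (11 and 9) and 2210414B05Rik (11 and 9), which lies near the Src family kinase gene Lyn, did so at both times. Others did so at TP1, such as a peak 71419 bases from the start of Cd44, the hyaluronan receptor gene (13 libraries).

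In C/D at TP1, 3 of the 294 peaks rose and 2 fell, against 2.00% and 0.155% of all tested peaks. B-ALL alone, the reference here and at TP2, also chose the peaks, which favours falls in C/D. The median log2 fold change was −0.05, and −0.01 over all tested. A change was called, as a rise or a fall, at 0.58 or more on the log2 scale in either direction and an adjusted p of at most 0.05, from edgeR's quasi-likelihood test with Benjamini-Hochberg adjustment over the 58840 tested peaks. The intergenic peak near Ptprg, which encodes a receptor-type tyrosine phosphatase (chr14:12242519-12244731), had 9.78, 14.0 and 26.0 CPM in 24 samples with NK cells (lowest, median, highest) and 4.08, 7.66 and 12.9 CPM in 22 samples alone. The groups overlapped, but 16 of the 24 lay above every sample alone, and the log2 fold change was 1.0 ± 0.09 (SE; edgeR adjusted p = 1.57e-14), with a rise in 8 of 8 combinations. The intronic peak of Prdm2, which encodes a histone methyltransferase (chr4:143187857-143192044), had 7.69, 13 and 23.1 CPM with NK cells and 5.30, 8.90 and 14.4 CPM alone. 8 samples with NK cells lay above all samples alone, and it rose by 0.59 ± 0.09 on the log2 scale (edgeR adjusted p = 4.51e-07; 8 of 8). The peak near the pseudogene Gm8079, whose nearest coding gene is Otud4, rose by 0.63 ± 0.11 (edgeR adjusted p = 6.13e-06; 7 of 8).

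The 2 peaks that fell in C/D at TP1 lay near pseudogenes. That near Gm12586 (chr11:121847601-121848369) had 1.81, 3.23 and 4.35 CPM with NK cells and 3.31, 4.66 and 7.78 CPM alone. 13 of the 24 samples with NK cells lay below all samples alone, and the log2 fold change was −0.64 ± 0.09 (edgeR adjusted p = 8.08e-08; lower in 8 of 8). That near Gm16477, inside an intron of the growth factor receptor gene Fgfr2, fell by 0.66 ± 0.10 on the log2 scale (edgeR adjusted p = 2.02e-07; lower in 7 of 8).

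In C/D at TP2, 13 of the 294 peaks fell and 3 rose, against 1.10% and 1.88% of all tested peaks. The reference was again B-ALL alone, whose libraries chose the peaks. The median was −0.12, 205 of the 294 had a negative value, and the median over all tested was 0.00. The largest fall was near the pseudogene Gm13484 (chr2:50734497-50735519, 76941 bases from it, with Rnd3, 414086 bases away, as nearest coding gene). It had 1.24, 2.33 and 3.89 CPM in 23 samples with NK cells and 2.71, 4.63 and 7.99 CPM in 22 samples alone. 15 of the 23 lay below every sample alone, and the log2 fold change was −0.99 ± 0.11 (edgeR adjusted p = 3.78e-11; lower in 8 of 8 combinations).

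Similar falls were seen at 9 more peaks that were lower in all 8 combinations. The peak near the pseudogene Gm13680 (chr2:83331481-83333465) had 0.634, 3.48 and 6.65 CPM with NK cells and 2.79, 7.18 and 12.8 CPM alone, a change of −0.91 ± 0.15 (edgeR adjusted p = 1.07e-06). The peak near Gpr63, an orphan G protein-coupled receptor gene (chr4:24942403-24944113), had 0.714, 2.72 and 3.98 CPM with NK cells and 0.815, 4.80 and 8.19 CPM alone. The ranges overlapped, with 1 of 23 samples below all samples alone, and within combinations it fell by 0.88 ± 0.13 (edgeR adjusted p = 2.85e-07). The peak near the non-coding gene 1700010H22Rik, in an intron of the cilia gene Cfap299 (chr5:98691211-98692739), had 0.701, 2.32 and 4.70 CPM with NK cells and 2.26, 4.55 and 9.72 CPM alone, a change of −0.83 ± 0.13 (edgeR adjusted p = 3.18e-07). Values were lowest in samples with NK cells, and 9 of 23 lay below all samples alone.

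The other named falls were smaller or of a similar size. The peak near AC168306.1 on chromosome 18 was at −0.88 ± 0.14, that near Mir6239 in an intron of Gpc6, a heparan sulphate proteoglycan gene (chr14:117777934-117779745), at −0.65 ± 0.12, and that near Gm38332 at −0.65 ± 0.11. AC154247.1 was at −0.62 ± 0.09 and 4930488L21Rik, in an intron of the G protein gene Gnao1 (chr8:93840500-93841775), at −0.58 ± 0.08. The promoter peak of Dnah7b, an axonemal dynein gene (209 bases from its start), was at −0.62 ± 0.10 and was the only one of the 10 within 3 kb of a start site. The nearest start site does not show which gene a distal peak acts on. The 3 remaining falls, near Gm8598, A930009A15Rik and a second peak of 4930488L21Rik, were not in the same direction in every combination.

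**Figure D2:**
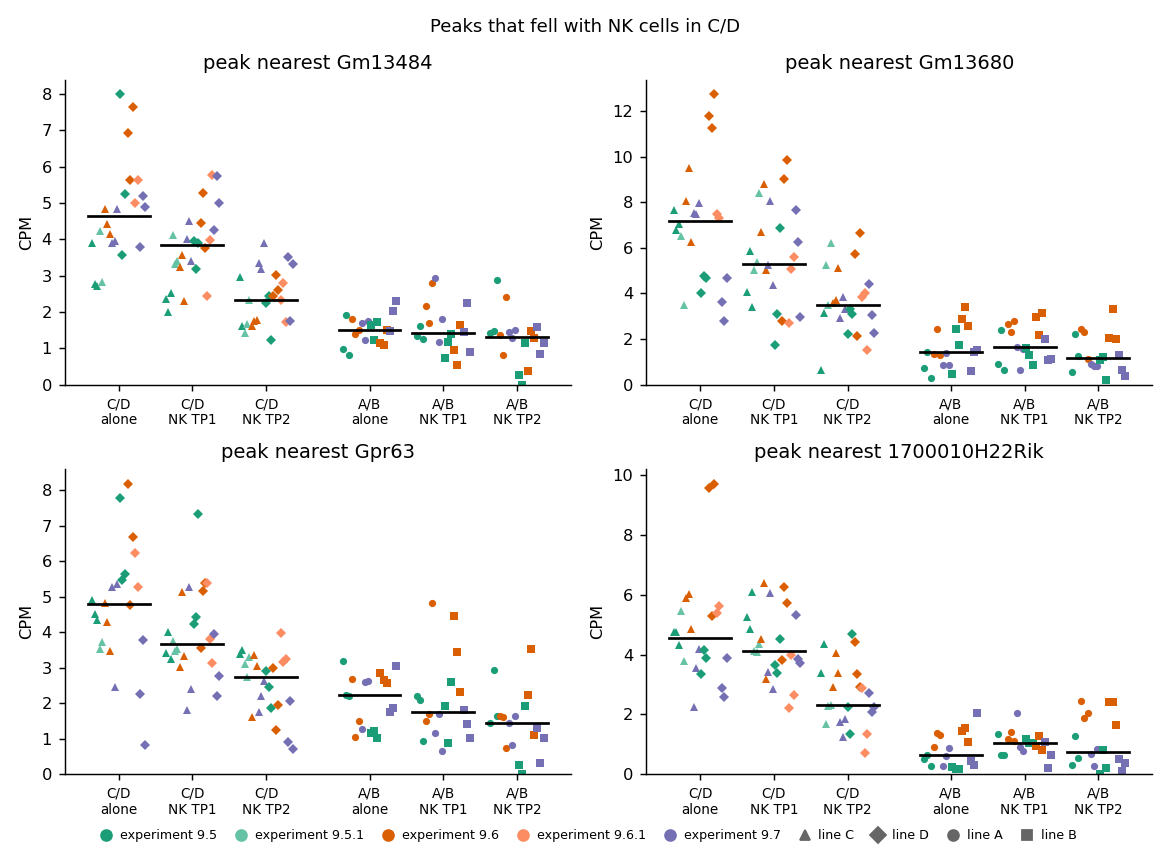
Level (CPM, linear axis from 0) of 4 peaks that were lower in C/D at TP2 than alone and than at TP1, comparisons that share the TP2 samples, with 1 point per sample, shapes for lines, colours for experiments and a black line for the median. Near Gm13484 the median is 4.63 CPM in C/D alone, 3.84 CPM at TP1 and 2.33 CPM at TP2, and the samples of A/B have medians of 1.31 to 1.5 CPM in the 3 arms.

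Of the 3 peaks that rose in C/D at TP2, that near Ptprg had 7.89, 13.2 and 21.3 CPM with NK cells and 4.08, 7.66 and 12.9 CPM alone (0.86 ± 0.09; edgeR adjusted p = 1.36e-11). The peak near the pseudogene Gm2965, with Ankrd50, an endosomal sorting gene 219951 bases away, as nearest coding gene (chr3:38234936-38236277), had 7.33, 11.6 and 16.2 CPM with NK cells and 3.79, 7.38 and 12.1 CPM alone (0.68 ± 0.08; edgeR adjusted p = 1.12e-10). The intronic peak of Bend7, which encodes a BEN domain protein (chr2:4780504-4783120), had 14.2, 20.7 and 39.0 CPM with NK cells and 8.76, 15.4 and 21.8 CPM alone (0.61 ± 0.07; edgeR adjusted p = 4.51e-10). All 3 rose in 8 of 8 combinations with overlapping groups.

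The comparison of TP2 with TP1 in C/D used no library that chose the peaks. Here 5 of the 294 fell and 0 rose, against 0.506% and 0.216% of all tested peaks, with a median of −0.08 and 0.01 over all. Judged by the adjusted p without a fold threshold, 32 were up and 60 down, as were 7492 and 8166 of the 58840. This comparison shares its TP2 samples with that against B-ALL alone. Named among the 5 were the peaks near 1700010H22Rik (−0.73 ± 0.12), Gm13484 (−0.69 ± 0.11), Gpr63 (−0.61 ± 0.13) and Gm13680 (−0.61 ± 0.14), each lower in 8 of 8 combinations. At TP1 these 4 had medians of 4.10, 3.84, 3.66 and 5.31 CPM, between those of cells alone and those at TP2. The fifth, near Gm44461, was lower in 7 of 8. None of the 4 named calls stayed past the threshold under every alternative fit. Gpr63 fell short in 5 of 16, Gm13680 in 4, and Gm13484 and 1700010H22Rik in 1 each.

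To measure the peaks in libraries that had not chosen them, they were chosen anew without the B-ALL alone libraries of an experiment and measured in that experiment only. Here experiment 9.5 includes 9.5.1 of line C, and experiment 9.6 includes 9.6.1 of line D, so neither is a single experiment in C/D. In C/D at TP2 the median was −0.09 for 304 peaks in experiment 9.5, −0.11 for 335 peaks in 9.6 and −0.01 for 354 peaks in 9.7. In 9.5, 24 fell and 6 rose (1.10% and 4.31% of all tested), in 9.6 17 fell and 5 rose (1.16% and 1.95%), and in 9.7 40 fell and 35 rose (13.6% and 9.69%). Falls thus exceeded their share among all peaks in 9.5 and 9.6 and not in 9.7. Without the library of 101211 broad peaks 12 fell and 3 rose at TP2 (1.04% and 1.83% of all), and between TP1 and TP2 3 fell (0.389% of all), where Gpr63 (−0.57) and Gm13680 (−0.56) were no longer past the fold threshold. Between TP1 and TP2, 10 peaks fell without replicate 1 (0.931% of all), 3 without replicate 2 (0.199%) and 8 without replicate 3 (0.661%). Without experiment 9.5, 14 rose and 18 fell at TP2, against 2.89% and 2.52% of all.

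In A/B at TP1, 28 of the 294 peaks rose and 0 fell, against 6.33% and 1.24% of all tested peaks. Without the fold threshold 62 were up (21.1%) and 7 down (2.38%), against 16.9% and 22.9% of all. The peaks were chosen for few calls in the A/B alone libraries used as reference here, which favours rises. The median was 0.13, against −0.03 over all. This shift of the whole set depended on the scaling, since with a loess offset by level 17 rose and 7 fell (5.30% and 1.58% of all) and the median was −0.05. The peak near Ptprg had 2.50, 6.78 and 11.2 CPM in 18 samples with NK cells and 1.12, 2.60 and 3.66 CPM in 18 samples alone. 15 of the 18 lay above every sample alone, the log2 fold change was 1.45 ± 0.16 (edgeR adjusted p = 1.29e-11), and it was higher in 6 of 6 combinations. The peak of Prdm2 had 5.73, 8.06 and 18.2 CPM with NK cells and 0.982, 4.03 and 5.74 CPM alone. Here 17 of 18 lay above all samples alone, and the change was 1.34 ± 0.13 (edgeR adjusted p = 1.71e-13).

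The next 3 rises at TP1 were of a similar size. The peak near Gm8079 (chr8:79561325-79562845) had 1.44, 2.21 and 4.05 CPM with NK cells and 0.146, 0.867 and 2.00 CPM alone (1.28 ± 0.20; edgeR adjusted p = 4.48e-07). The peak near Rasgrf1, which encodes an exchange factor that activates Ras (chr9:89874146-89875393), had 1.84, 2.66 and 4.89 CPM with NK cells and 0.343, 1.20 and 2.57 CPM alone (1.13 ± 0.15; edgeR adjusted p = 4.91e-09). The peak at the non-coding gene Gm27246, with N4bp1, a gene of innate immune regulation 263477 bases away, as nearest coding gene (chr8:87147965-87149505), had 2.66, 5 and 7.44 CPM with NK cells and 1.04, 2.13 and 3.44 CPM alone (1.11 ± 0.13; edgeR adjusted p = 2.70e-10). All 3 were higher in 6 of 6 combinations, and 14, 9 and 15 of 18 samples with NK cells lay above all samples alone. The remaining 23 rose by 0.58 to 1.08 on the log2 scale. Named after their values were seen, they included peaks in introns of Tmem178b and of Prr5l, a partner of the kinase complex mTORC2, near Cd44 and near Cd86, the ligand of CD28, and at the start sites of Phf11d, an interferon-induced gene, and of Ctnnd1, a catenin gene.

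In A/B at TP2, 16 of the 294 peaks rose and 7 fell, against 4.58% and 1.48% of all tested peaks. The reference was again the alone libraries that chose the peaks. The median was 0.07, against −0.01 over all. With a loess offset 13 rose and 12 fell (3.93% and 1.91% of all), and the median was −0.02. The peak near Ptprg had 5.07, 7.74 and 11.7 CPM with NK cells and 1.12, 2.60 and 3.66 CPM alone, so the groups did not overlap, and it had a call in all 18 libraries. The log2 fold change was 1.68 ± 0.16 (edgeR adjusted p = 1.25e-13). It was the only called peak in comparisons with NK cells whose groups did not overlap. Such gaps were not counted over all tested peaks, so nothing is read from this. The peak near Ptprg was also the only one of the 294 whose median in A/B with NK cells came up to its median in C/D alone, 7.74 against 7.66 CPM. The median peak at TP2 stood at 0.301 of its level in C/D alone, against 0.278 in A/B alone.

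The peak near Gm2965 had 2.01, 4.66 and 7.17 CPM with NK cells in A/B at TP2 and 0.732, 1.56 and 3.64 CPM alone, and 14 of 18 lay above all samples alone (1.32 ± 0.14; edgeR adjusted p = 1.31e-11). The peak near the non-coding gene Gm47007, with Pik3r1, which encodes the regulatory subunit of PI3 kinase and lies 98782 bases away, as nearest coding gene (chr13:101866450-101867548), had 1.23, 3.05 and 5.77 CPM with NK cells and 0.515, 1.28 and 2.57 CPM alone (1.15 ± 0.18; edgeR adjusted p = 4.33e-07). In C/D it was at 0.22 at TP1 and −0.04 at TP2, not called in either. Prdm2 (1.10 ± 0.13) and Gm8079 (1.06 ± 0.21) rose too, and all of these were higher in 6 of 6 combinations. All 3 peaks that rose in C/D at TP1 were among the 28, and all 3 that rose in C/D at TP2 were among the 16.

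**Figure D3:**
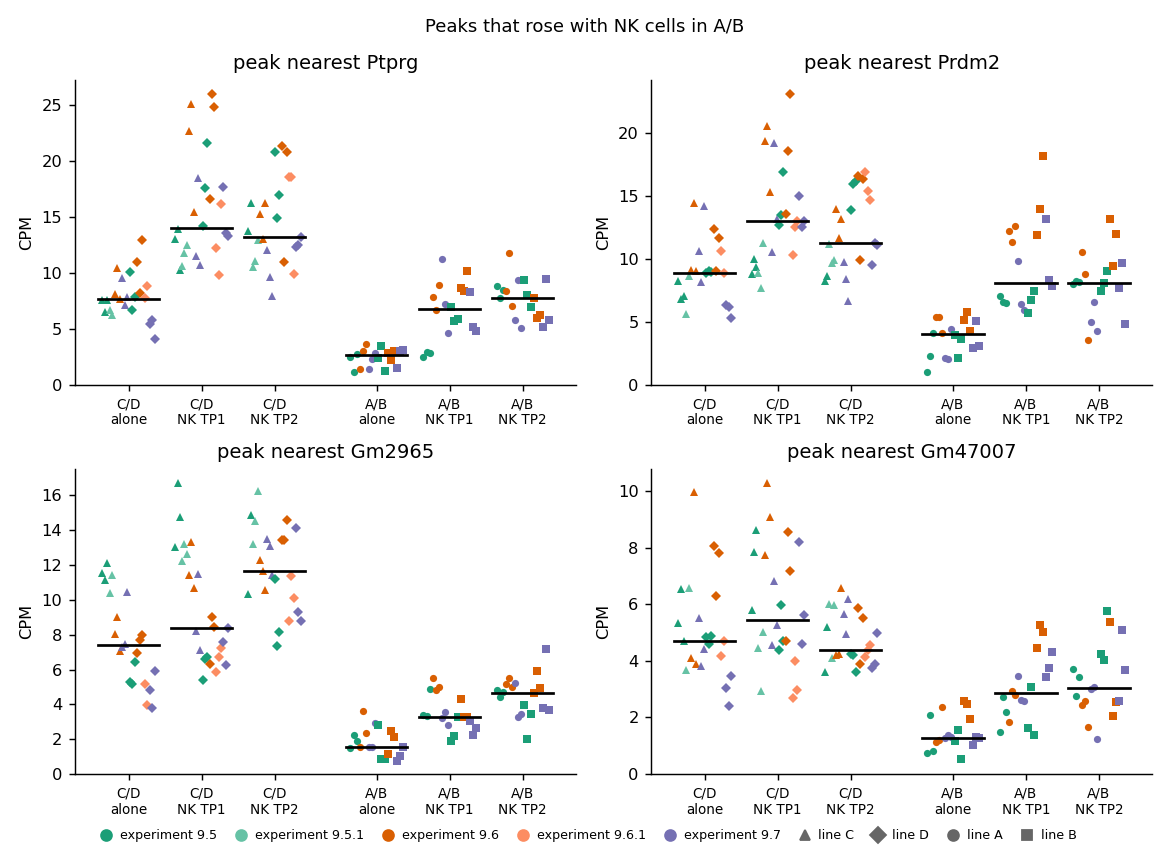
Level (CPM, linear axis from 0) of 4 peaks that rose with NK cells in A/B, with 1 point per sample, shapes for lines, colours for experiments and a black line for the median. Near Ptprg the median of A/B is 2.60 CPM alone and 7.74 CPM with NK cells at TP2, and that of C/D alone is 7.66 CPM.

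The peak near Gm23845 (chr4:129876860-129878344; nearest coding gene Ptp4a2) had 2.01, 3.42 and 6.22 CPM with NK cells and 4.09, 5.17 and 7.64 CPM alone (−0.62 ± 0.12; edgeR adjusted p = 2.18e-05), with 14 of 18 below all samples alone. The peak near the pseudogene Gm8365 was at −0.59 ± 0.12 and Tpt1-ps3 at −0.64 ± 0.17. These 3 were lower in 6 of 6 combinations. The other 4, among them intronic peaks of Grik4 and Cgnl1, were not, and 1 of the 7, A930009A15Rik, also fell in C/D at TP2.

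Between TP1 and TP2 in A/B, 7 peaks fell and 0 rose, against 1.40% and 0.138% of all tested peaks, with a median of −0.06 and 0.02 over all. Among the 7 were the peaks near Gm24073 (−0.75 ± 0.15), Rasgrf1 (−0.68 ± 0.14) and Spry2 (−0.85 ± 0.15), an inhibitor of receptor kinase signalling. The peak near Rasgrf1 had 0.722, 1.91 and 3.15 CPM at TP2 and 1.84, 2.66 and 4.89 CPM at TP1, and 8 of 18 samples at TP2 lay below all at TP1. Gm8668 (−0.68 ± 0.14), AC102255.1 on chromosome 18 (−0.67 ± 0.16) and 4930412L05Rik (−0.62 ± 0.14) fell too, and with Gm24073 and Rasgrf1 they were lower in 6 of 6 combinations. No library that chose the peaks entered this comparison. None of these 5 stayed past the threshold under every alternative, and 4 peaks fell without replicate 1 (0.802% of all) and 14 without replicate 2 (2.69%).

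The shift of the peaks as a whole differed between experiments in A/B. The median log2 difference at TP1 was 0.32 in A and 0.28 in B in experiment 9.5, and 0.22 and 0.09 in experiment 9.6. In experiment 9.7, whose days were later, it was −0.04 in A and −0.08 in B. At TP2 it was 0.35 and 0.03 in 9.5, 0.34 and 0.30 in 9.6, and −0.05 and −0.55 in 9.7. The medians were thus above 0 in 9.5 and 9.6 and below 0 in 9.7, in both lines and at both times. In C/D the median at TP2 was negative in 7 of 8 combinations, from −0.22 in C in experiment 9.5, and 0.07 in D in experiment 9.7.

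A measure of the libraries differed along with these medians in A/B, and in C/D it ran the other way in some combinations. The share of counts that fell in the 15892 peaks called in every library had medians of 67.3%, 65.5% and 64.5% in A/B (alone, TP1, TP2) and 64.5%, 64.8% and 63.6% in C/D. In A/B at TP2 it was lowest in B in experiment 9.6 (mean 61.7%), where the 294 peaks were up, and highest in B in experiment 9.7 (69.1%), where they were down. In C in experiment 9.5 it was 62.0% at TP2 and 65.8% alone, where the peaks had a median of −0.22, and in D in experiment 9.7 it was 66.7% at TP2 and 64.9% alone, with a median of 0.07. With this share as a covariate, added after the data were seen, 24 peaks rose and 12 fell in A/B at TP1 (6.41% and 1.66% of all) and 15 rose and 32 fell at TP2 (4.47% and 2.38% of all), with medians of −0.07 and −0.19. The 5 named rises at each time stayed past the threshold, at 1.01 to 1.48 at TP1 and 0.79 to 1.71 at TP2. In C/D the medians were −0.05 and −0.13 with the covariate. Without experiment 9.7, 50 peaks rose in A/B at TP1 (6.53% of all), and at TP2 53 rose and 0 fell (7.05% and 1.84% of all). Without replicate 3, 45 rose at TP1 (7.28% of all). With peaks chosen without the experiment they were measured in, the median in A/B was 0.38, 0.14 and −0.06 at TP1 in 9.5, 9.6 and 9.7, and 0.26, 0.32 and −0.38 at TP2.

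**Figure D4:**
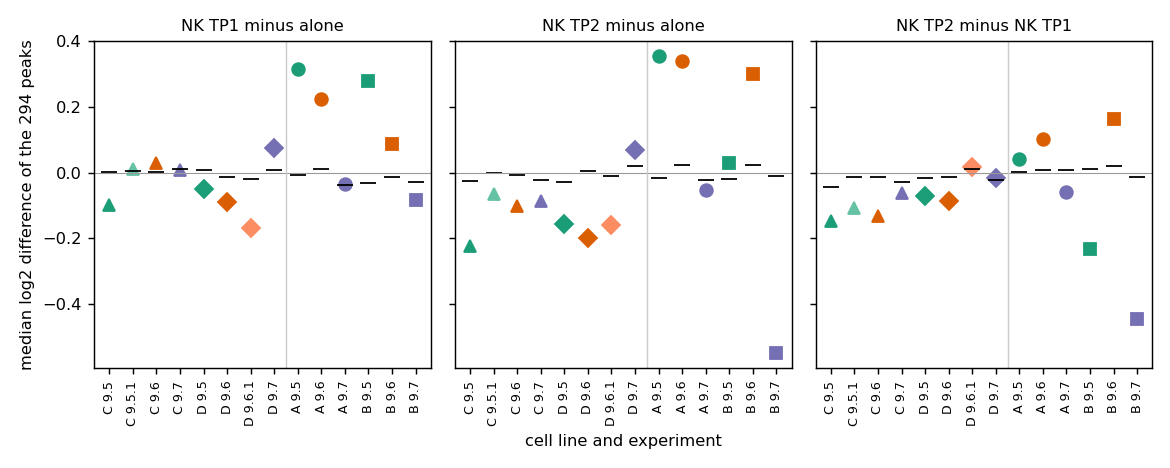
Median log2 difference of the 294 peaks (y axis, of log2 CPM + 0.5) within each combination of cell line and experiment (x axis), for NK TP1 minus alone, NK TP2 minus alone and NK TP2 minus NK TP1, with shapes for lines and colours for experiments. Short black lines are the median over all tested peaks, which stays between −0.04 and 0.02, while B in experiment 9.7 reaches −0.55 at TP2.

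Whether NK cells acted differently on the peaks in C/D and in A/B was tested in a single model over both pairs. At TP1, 0 peaks had a higher and 26 a lower effect in C/D than in A/B, against 0.666% and 3.07% of all tested peaks, with a median difference of −0.22. At TP2, 4 had a higher and 32 a lower effect, against 1.61% and 3.07%, with a median of −0.20. The choice by B-ALL alone favours a negative difference. Without replicate 1, 0 peaks were called at TP1 (0.0204% of all higher and 0.337% lower) and 3 higher and 11 lower at TP2 (1.23% and 1.65%). Without experiment 9.7 the lower ones were 53 and 62 (4.07% and 2.18% of all). The largest difference at TP2 was near Gm47007 (−1.19 ± 0.21; edgeR adjusted p = 1.56e-05), at −0.04 in C/D and 1.15 in A/B. Near 1700010H22Rik it was −1.16 ± 0.29, at −0.83 in C/D and 0.32 in A/B. Even Ptprg, which rose in both pairs, had a lower effect in C/D at TP2 (−0.82 ± 0.19; edgeR adjusted p = 7.83e-04).

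**Figure D5:**
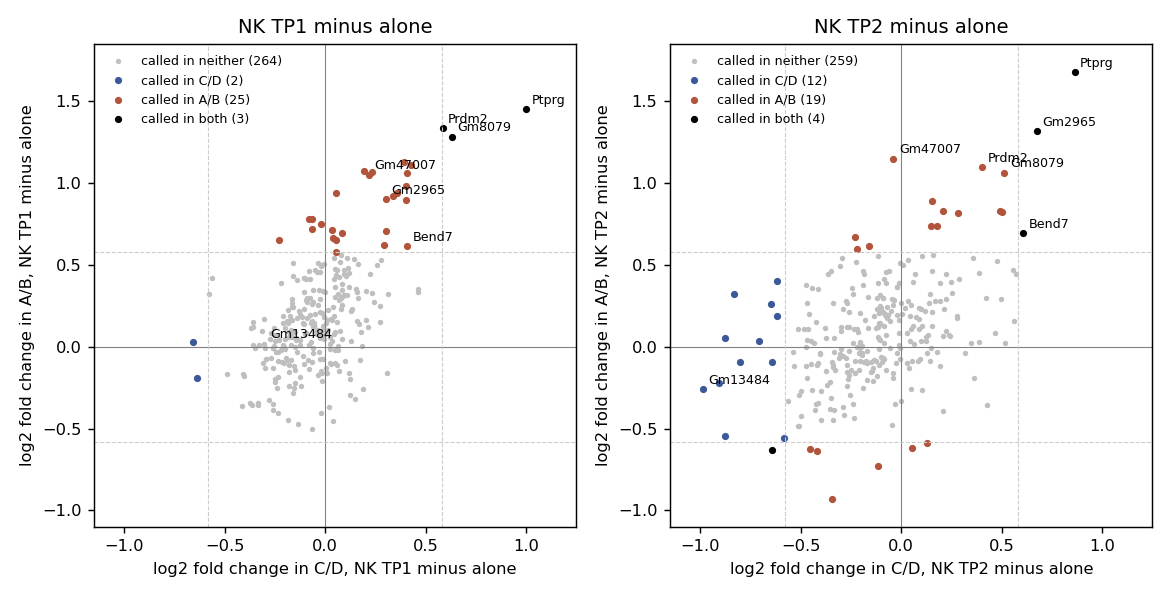
Log2 fold change with NK cells in C/D (x axis) against that in A/B (y axis) for the 294 peaks at TP1 (left) and TP2 (right), with 1 point per peak and colours for calls. Dashed lines mark the fold threshold of 0.58. At TP1 25 peaks were called in A/B alone, 2 in C/D alone and 3 in both, and at TP2 19, 12 and 4. The pairs share no sample.

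Lines C and D, which share a parental line, are set side by side as a description, since the B-ALL alone libraries compared here also chose the peaks, and the calls required limit how low either line can be. In these libraries 19 of the 294 peaks were past the threshold as higher and 4 as lower in C than in D, against 0.617% and 0.624% of all tested peaks, with a median of 0.06 and 0.00 over all. Without experiment 9.5, 1 peak was higher and 0 were lower (0.0867% and 0.122% of all), and without experiment 9.6 31 and 9 (1.42% and 1.53%). The largest difference lay near Mir582, in an intron of the phosphodiesterase gene Pde4d (chr13:109297855-109299762), with 7.51, 9.4 and 11 CPM in 11 samples of C and 1.75, 3.76 and 6.80 CPM in 11 samples of D. The 11 samples of each line include 9.5.1 for C and 9.6.1 for D, which the log2 differences leave out. The lines did not overlap, and the log2 difference was 1.28 ± 0.16. The promoter peak of B3galt5, a galactosyltransferase gene (chr16:96279816-96281577), had 13.6, 15.1 and 18.5 CPM in C and 5.68, 9.56 and 12.6 CPM in D (0.83 ± 0.12), again without overlap. In the other direction the intronic peak of Robo3 (chr9:37416241-37419529) had 18.5, 28.3 and 31.8 CPM in C and 38.2, 44.6 and 50.9 CPM in D (−0.78 ± 0.09). These peaks were named after their values were seen.

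By position the 294 peaks were mostly distal. Their centre lay within 3 kb of a start site at 86 peaks (29.3%), against 38.9% of all tested peaks and 67.0% of those called in every library. 135 lay in introns, 120 between genes and 39 over exons. Their median width was 1628 bases (663 to 4302), and that of all tested was 1725. Chromosome 14 held 31 of them, 11.9 per 1000 tested peaks, chromosome 18 had 9.73 per 1000 and chromosome 19 the fewest, 1.63. The nearest start site belonged to a protein-coding gene at 158 peaks and to a processed pseudogene at 36. Pseudogenes resemble their parent genes, so reads near them can be hard to place.

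Most of the peaks stood alone. With a gap of up to 100 kb, 50 of the 294 fell into 22 stretches, and 244 were single. The longest run by number was over Stox2, a gene for a winged helix protein (chr8:47287388-47349766), with 5 members among 7 tested peaks. None of these 5 was called with NK cells in either pair, and their changes lay between −0.26 and 0.36 in C/D and between −0.35 and 0.26 in A/B against B-ALL alone. The second stretch (chr10:37235574-37338779) lay near Marcks, which encodes a protein kinase C substrate, and held 4 members among 6 tested peaks. All 4 were higher in C than in D, by 0.79 to 0.96 on the log2 scale, and none was called with NK cells. The third, at B3galt5 (chr16:96261475-96299081), held 3 members among 6 tested peaks, of which 1 rose in A/B at TP1 (0.71 ± 0.23).

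The peaks were also set against gene lists for leukaemia and the NK cell response. Of 13 gene lists, 10 held none of the 294, among them interferon response (64 genes, 145 tested peaks), antigen presentation (27 genes, 50 peaks), B lineage and pre-B cell receptor (38 genes, 179 peaks) and NK receptor ligands (29 genes, 65 peaks). The other 3 lists held 1 each. The 294 make up 0.50% of all tested peaks, so lists of 26 to 179 tested peaks would hold few or none at that share, and nothing is read from these counts. The intronic peak of Tnfrsf1b, which encodes TNF receptor 2, was at 0.24 in C/D at TP2, and no change of it was called. The peak near Spry2 (chr14:105922296-105923442) had 19.2, 25.5 and 40.5 CPM in C/D alone and 0.934, 1.83 and 3.26 CPM in A/B alone. It rose in A/B at TP1 (0.65 ± 0.15) and fell between TP1 and TP2 (−0.85 ± 0.15), and in C/D it was at 0.06 at TP1 and −0.26 at TP2.

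The 101 peaks open only in A/B, chosen by the mirror rule with calls in at least 15 of 18 and at most 1 of 23 libraries, are given for comparison, with no test between the sets. In A/B, the pair in which they were open, 6 rose and 2 fell at TP1 (5.94% and 1.98%, against 6.33% and 1.24% of all tested) and 4 rose and 12 fell at TP2 (3.96% and 11.9%, against 4.58% and 1.48%). In C/D, 3 rose and 2 fell at TP1 (2.97% and 1.98%, against 2.00% and 0.155%) and 2 rose and 4 fell at TP2 (1.98% and 3.96%, against 1.88% and 1.10%). Of the 294 peaks, 4.42% fell at TP2 in the pair in which they were open, and of the 101 peaks 11.9% did.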

How the data were processed

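ATAC-seq was analysed in 125 libraries of cell lines A to D. According to the study and the processing notes, the authors aligned reads with STAR to GRCm38, marked duplicates with Picard 2.27.4, called broad peaks per library with MACS2 2.2.7.1, merged them into 256400 consensus peaks and counted reads with featureCounts, with an overlap fraction of 0.2. The deposited count table holds whole-number counts per consensus peak, not normalized. The deposited broad peak files give a −log10 q-value for each peak from MACS2, and the presence of a peak was used here. The labels give the samples' groups, and every count column matched 1 library.

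The members and lists were chosen with earlier results of these data known. A consensus peak counted as called in a library where a broad peak overlapped it by at least 1 base. Peaks called in every library of at least 1 group were kept, filtered with filterByExpr, scaled by TMM and fitted with the quasi-likelihood model of edgeR 4.0.16 (R 4.3.3), with a term for each combination of line and experiment, for C/D (69 samples, 59 residual degrees of freedom) and A/B (54 samples, 46) apart. The contrast between the pairs and that between lines C and D came from fits of their own. p-values were adjusted over all 58840 tested peaks by the Benjamini-Hochberg method, as in the study's thresholds of 0.05 and 0.58. Library totals were 3083547 to 13580746 counts, which limits the precision at weak peaks. In 2 groups of C replicates 2 and 3 gave a chi-square per degree of freedom of 0.827 and 0.852, against 1.08 or more in the other pairs of the 124 compared, and were averaged.

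Named peaks were the largest called changes in the same direction in every combination (in C/D 10 each way at TP2 against alone and 5 in the other comparisons, in A/B 5 each way), the 10 with the highest level in C/D alone, those next to a gene of 13 lists, the 3 stretches with the most members, and 6 for sequence. Of these, 2 sequences and 1 peak next to a listed gene are not reported here. Nearest start sites were taken from the GENCODE annotation of GRCm38 and name a peak only. Motifs were searched in the central 300 bases. The fit was tested on simulated data. Alternatives were RLE scaling, DESeq2 1.42.0, a loess offset, no filter on low counts, a replicate block, duplicates kept apart, leaving out replicates or experiments, single lines, a stricter, a looser and a half-covered rule, newly chosen members and the adjusted p alone.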

Additional observations from a re-analysis of the deposited data

Results flagged for a closer look

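For the named peaks, the effect of NK cells differed between C/D and A/B in the contrast of the edgeR fit (C/D minus A/B, log2 scale) as follows, where B-ALL alone libraries that chose the peaks enter every value. At TP1 the difference was −0.98 near Mir6239 (chr14:117777934-117779745), −0.91 near AC154247.1, −0.84 near Gm24073, −0.84 near Gm47007, −0.75 at Prdm2, −0.74 near Rasgrf1, −0.68 near Gm27246, −0.65 near Gm8079, −0.61 at Dnah7b, −0.60 near Gm2965 and −0.60 near Spry2. All of these were lower in C/D. At TP2 it was −1.19 near Gm47007, −1.16 near 1700010H22Rik, −1.03 near AC154247.1, −0.93 near AC168306.1, −0.91 near Mir6239, −0.82 near Ptprg, −0.81 at Dnah7b, −0.73 near Gm13484, −0.70 at Prdm2, −0.64 near Gm2965 and −0.60 at Robo3. It was positive at 0.78 near Gm8668, 0.72 near Gm8365 and 0.67 near Gm23845, the 3 named peaks with a lower value in A/B than in C/D.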

How the results depend on the processing

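The shares below count rises and falls together, and those of all tested peaks moved with the setting as well. Where a setting's share of all tested peaks is not given, nothing is read from the share of the 294. The share of the 294 peaks called was 1.70% in C/D at TP1, 5.44% in C/D at TP2, 1.70% in C/D between TP1 and TP2, 9.52% in A/B at TP1, 7.82% in A/B at TP2, 2.38% in A/B between TP1 and TP2, 8.84% in the C/D minus A/B difference at TP1, 12.2% in the C/D minus A/B difference at TP2 and 7.82% in C against D. It stayed within 1.5 times these values under RLE scaling, DESeq2, with duplicates kept apart and in lines A and C alone. With the stricter rule (50 peaks) it was 0% in C/D at TP1, 0% in C/D between TP1 and TP2, 6.00% in A/B at TP1, 4.00% in A/B at TP2 and 4.00% in A/B between TP1 and TP2. With the looser rule (926 peaks) it was 4.97% in C against D. With calls that cover at least 50% of the peak (36 peaks) it was 2.78% in C/D at TP1, 0% in C/D between TP1 and TP2, 13.9% in A/B at TP2, 8.33% in A/B between TP1 and TP2, 5.56% in the C/D minus A/B difference at TP1 and 0% in C against D. At the adjusted p alone it was 21.4% in C/D at TP1, 48.0% at TP2 and 31.3% between TP1 and TP2. Of all tested peaks, 9.33% were up and 5.18% down at TP1, 17.1% and 16.2% at TP2, and 12.7% and 13.9% between the times. In A/B the share of the 294 was 23.5% at TP1, 17.3% at TP2 and 8.50% between TP1 and TP2. Of the 58840, 9965 were up and 13484 down at TP1, 7624 and 8572 at TP2, and 4731 and 4467 between the times. The share of the 294 was 14.6% in the C/D minus A/B difference at TP1, 18.4% in that at TP2 and 13.9% in C against D. Of the 58840, 7445 were higher and 3731 lower at TP1, 6423 and 4158 at TP2, and 928 and 791 in C against D. With the loess offset the share of the 294 was 1.36% in A/B between TP1 and TP2 and 5.44% in the C/D minus A/B difference at TP1. Without the filter on low counts it was 1.02% in C/D at TP1, 5.44% in C/D between TP1 and TP2, 3.06% in the C/D minus A/B difference at TP1 and 4.42% in the C/D minus A/B difference at TP2. Without experiment 9.5 it was 10.9% in C/D at TP2, 5.44% in C/D between TP1 and TP2, 5.10% in A/B between TP1 and TP2 and 0.340% in C against D. Without experiment 9.6 it was 3.74% in C/D between TP1 and TP2, 6.12% in A/B between TP1 and TP2, 4.08% in the C/D minus A/B difference at TP1, 6.46% in the C/D minus A/B difference at TP2 and 13.6% in C against D. Without experiment 9.7 it was 0.680% in C/D between TP1 and TP2, 17.0% in A/B at TP1, 18% in A/B at TP2, 18% in the C/D minus A/B difference at TP1 and 21.1% in the C/D minus A/B difference at TP2. In line D alone it was 2.72% in C/D at TP1 and 9.52% in C/D at TP2. In line B alone it was 4.76% in A/B between TP1 and TP2. Without the library of 101211 broad peaks it was 1.02% in C/D between TP1 and TP2. With the share of counts in always called peaks as covariate it was 2.72% in C/D between TP1 and TP2, 16.0% in A/B at TP2 and 4.08% in A/B between TP1 and TP2. With 304 peaks chosen without experiment 9.5 and measured in it, it was 2.96% in C/D at TP1 and 9.87% in C/D at TP2. Of all tested peaks there, 1.69% were up and 0.318% down at TP1, and 4.31% and 1.10% at TP2. In A/B the share of the 304 was 24.3% at TP1 and 17.1% at TP2. With 335 peaks chosen without experiment 9.6 and measured in it, it was 15.2% in A/B at TP2 and 14.0% in A/B between TP1 and TP2. In experiment 9.7 alone, 3.36% of all tested peaks rose and 1.61% fell in C/D at TP1, and 9.69% and 13.6% at TP2. With 354 peaks chosen without that experiment and measured in it, the share called in C/D was 5.37% at TP1, 21.2% at TP2 and 18.1% between the times. Without 1 replicate number in turn it ran from 1.36% to 1.70% in C/D at TP1, from 5.78% to 6.80% in C/D at TP2, from 1.02% to 3.40% in C/D between TP1 and TP2, from 6.46% to 15.3% in A/B at TP1, from 7.14% to 9.86% in A/B at TP2, from 1.36% to 5.10% in A/B between TP1 and TP2, from 0% to 12.9% in the C/D minus A/B difference at TP1, from 4.76% to 10.9% in the C/D minus A/B difference at TP2 and from 6.12% to 7.48% in C against D.

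Same-numbered replicates had a median correlation of −0.003 in A/B and 0.05 in C/D, for which no test was run. Of these pairs 12 of 54 in A/B and 17 of 66 in C/D correlated above 0.1. In A/B 19 samples correlated best with their own number, and in C/D 29 did. With the replicate block the share was 2.38%, 6.12% and 2.04% in C/D and 9.86%, 7.48% and 2.38% in A/B (TP1, TP2, between the times), 8.16% and 12.2% for the difference and 7.82% for C against D. No named call reversed. Of the 38 named calls, 16 passed under every refit, Ptprg in both pairs at both times among them, and the others fell short in at least 1, most often 4930488L21Rik in C/D at TP2 (9 of 16 refits) and Prdm2 in C/D at TP1 (6 of 16). The median log2 change of the peaks kept its sign in all 23 settings in C/D between the times and in all 16 for both differences. It changed sign in 3 of 23 settings in C/D at TP1, from −0.08 to 0.08, in 1 of 23 at TP2, and without experiment 9.7 in C against D. In A/B it changed sign in 3 of 21 settings at TP1, from −0.07 to 0.38, in 6 of 21 at TP2, from −0.38 to 0.32, and in 5 of 21 between the times. The cause was not tested. The fits without that library and with that covariate were chosen after seeing the data.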
